A study of Mus musculus with 27 samples.

Results

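The 39 genes described here are targets and regulators of the sterol regulatory element-binding proteins (SREBPs), chosen by name as the genes of cholesterol synthesis (the sterol arm, 21 genes) and of fatty acid and triglyceride synthesis (the fatty acid arm, 18 genes). All 39 were found by symbol in each of 3 deposited tables of mouse RNA-seq, the largest of which list 27178 genes. The tables held 27 libraries in 9 groups of 3. The liver table compared livers of healthy mice, livers of mice given carbon tetrachloride (CCl4), a hepatotoxin used to induce fibrosis, and livers of CCl4 mice treated with an extract of the brown seaweed Sargassum japonica. The first organoid table compared 3 sets of liver organoids: from mice that had received only the mineral oil vehicle, from CCl4 mice, and from CCl4 mice with a 24 h exposure to the extract in culture. The second organoid table compared organoids of healthy mice left untreated, exposed for 24 h to the profibrotic cytokine TGF-β1, or exposed to TGF-β1 for that time with a further 24 h of extract. Organoids in all 6 groups were grown in Matrigel and kept in differentiation medium for 4 to 5 days. The labels give no strain, sex, age or dose, and do not say when the organoids given TGF-β1 alone were collected or whether replicates came from separate animals or cultures. The p-values below therefore measure only the spread between these samples.

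SREBPs are made as precursors in the membrane of the endoplasmic reticulum. When sterols are scarce, the escort protein SCAP carries them to the Golgi, where proteases release the part that enters the nucleus. When sterols are plentiful, INSIG proteins hold SCAP back. SREBP2, encoded by Srebf2, acts mainly on the genes of the mevalonate and sterol pathway. SREBP1c, encoded by Srebf1, acts mainly on the genes that make fatty acids, and in hepatocytes it is itself induced by insulin and by the oxysterol receptor LXR. SREBPs bind DNA weakly alone and usually act beside factors such as NF-Y, which binds CCAAT boxes.

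Promoter sequences from RefSeq (GRCm38.p6, the window from 250 bases before to 50 after a start site) were matched for 31 members, 17 of the sterol arm and 14 of the fatty acid arm. CCAAT, the core of the NF-Y site, was found on either strand in 16 of the 17 sterol arm genes and in 11 of the 14 fatty acid arm genes, against 41.1% of 27025 genes. The GC box letters GGGCGG were found in 16 of 17 and 8 of 14, against 38.2%, and the E-box letters CACGTG in 4 of 17 and 2 of 14, against 8.09%. A sterol response element written TCACNCCAC was found only in the windows of Hmgcs1 and Mlxipl, against 1.44% of genes. None of these matches shows that a factor was bound. Of these upstream sequences, 4 are printed 5′ to 3′ to show how the letters are arranged. Hmgcs1 (chr13:119690101-119690350, plus strand) encodes the cytosolic HMG-CoA synthase at the head of the pathway, and Mvd (chr8:122443423-122443672, minus strand) the mevalonate diphosphate decarboxylase. Fasn (chr11:120824548-120824797, minus strand) encodes fatty acid synthase. Mlxipl (chr5:135106641-135106890, plus strand, before a start inside the gene) encodes the glucose-responsive factor ChREBP. Capitals mark the CCAAT box (read as ATTGG on the other strand) and the TCACNCCAC element. The element lay 137 bases before the start in Hmgcs1 and 136 bases before it in Mlxipl. Hmgcs1 held 3 CCAAT boxes, Mvd held 2, and Fasn held 3, of which 2 overlap on opposite strands.
Hmgcs1: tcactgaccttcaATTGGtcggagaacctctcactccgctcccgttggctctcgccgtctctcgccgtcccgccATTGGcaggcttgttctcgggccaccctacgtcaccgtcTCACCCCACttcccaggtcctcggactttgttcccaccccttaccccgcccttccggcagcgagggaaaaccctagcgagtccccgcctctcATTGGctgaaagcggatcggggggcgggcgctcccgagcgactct
Mvd: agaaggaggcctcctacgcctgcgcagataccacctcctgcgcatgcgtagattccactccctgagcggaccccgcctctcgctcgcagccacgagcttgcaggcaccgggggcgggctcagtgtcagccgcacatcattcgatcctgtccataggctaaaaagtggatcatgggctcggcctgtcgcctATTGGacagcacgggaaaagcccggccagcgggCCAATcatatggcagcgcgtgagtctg
Fasn: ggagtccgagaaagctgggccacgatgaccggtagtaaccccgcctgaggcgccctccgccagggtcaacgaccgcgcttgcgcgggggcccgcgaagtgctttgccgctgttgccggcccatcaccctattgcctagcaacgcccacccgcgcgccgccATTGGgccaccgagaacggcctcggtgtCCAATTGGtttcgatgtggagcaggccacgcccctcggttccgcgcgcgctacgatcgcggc
Mlxipl: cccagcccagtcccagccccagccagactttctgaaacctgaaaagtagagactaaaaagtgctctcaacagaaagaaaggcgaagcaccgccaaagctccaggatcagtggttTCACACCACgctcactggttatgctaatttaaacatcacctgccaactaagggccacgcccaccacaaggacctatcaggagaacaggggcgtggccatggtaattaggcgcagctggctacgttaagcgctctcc

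Libraries held 44.5 to 64.8 M reads. Levels are given as CPM, the reads of a gene per 1e6 reads of the library's scaled size. A gene was called changed at an adjusted p under 0.05 in limma, and every adjusted p is limma's, with Benjamini-Hochberg adjustment over all genes tested in the comparison. Several libraries stood apart from their groups. On the first principal component of the TGF-β1 table, untreated library 3 and TGF-β1 plus extract library 3 lay at 79.6 and 95.3, and the other 7 between -27.2 and -23.2. Oil organoid library 1 lay at 38.9, against 120.2 and 131.9 for the other oil libraries. In healthy liver library 1, 10 of 18 fatty acid arm members were more than 1 log2 unit above the mean of the other healthy livers, against 2.29% of all genes. Of its 21 sterol arm members 19 were above that mean and 2 below, with a median of 0.61 (all genes -0.01). Cell type markers differed between the groups too. Summed hepatocyte markers were 121101 to 141759 CPM in healthy livers, 97163 to 102046 CPM in CCl4 livers (7 of 10 markers lower) and 121803 to 140028 CPM in livers given the extract, with all 10 detected in each group. Summed stellate cell markers were 224 to 274, 1063 to 1477 and 659 to 800.4 CPM in the same order, cholangiocyte markers 43.3 to 62.9, 189.8 to 419 and 129 to 149 CPM, and macrophage markers 356 to 478, 660 to 799 and 636 to 788 CPM. Proliferation markers summed to 14.6 to 20.5 CPM in healthy livers, 564 to 679.9 CPM in CCl4 livers (7 of 7 higher) and 78.4 to 139 CPM with the extract (7 of 7 lower than with CCl4). All organoids carried the cholangiocyte markers, at 4794 to 10692 CPM. In organoids the hepatocyte markers summed to at most 1254 CPM, and in the 3 groups from oil and CCl4 mice Asgr1 was at 0 in every library. The part these markers play in the results below was not tested, and in bulk RNA fewer cells of a type and less RNA per cell cannot be told apart.

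**Figure D1:**
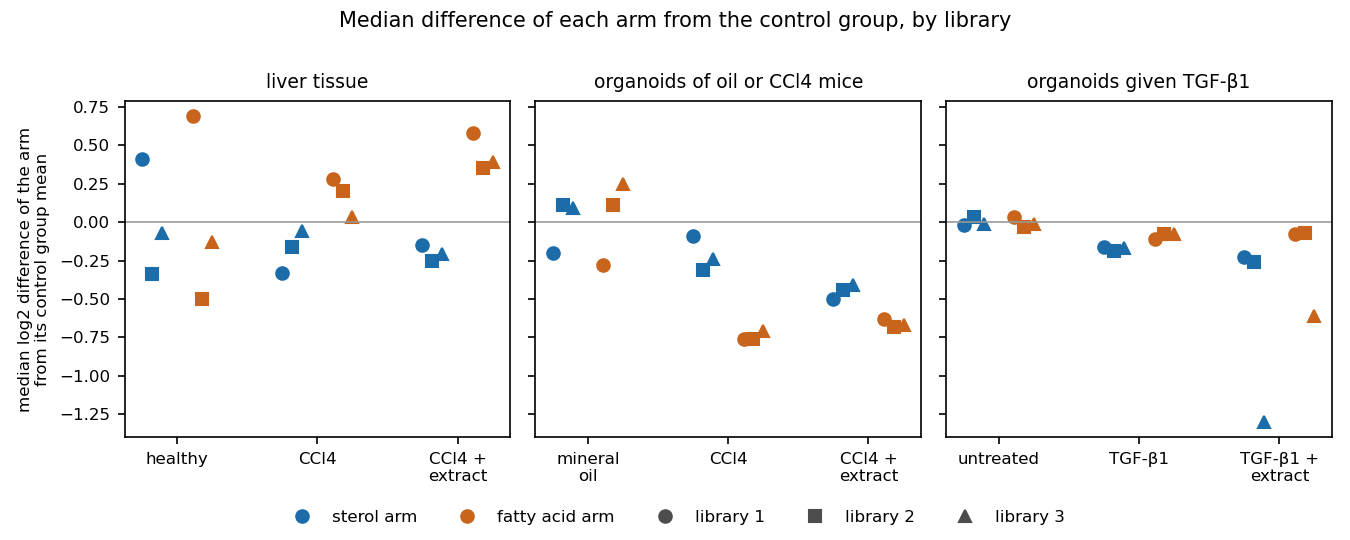
Median log2 difference of the tested members of each arm from the mean of the control group of the same table (healthy liver, oil organoids or untreated organoids), for each of the 27 libraries; circles, squares and triangles are libraries 1, 2 and 3 of a group. The sterol arm sits below 0 in all 6 treated liver libraries and all 12 treated organoid libraries, and TGF-β1 plus extract library 3 is the lowest at -1.30. Some control libraries sit below 0 too. Healthy liver libraries 1 to 3 are at 0.41, -0.34 and -0.07, and CCl4 liver libraries at -0.33, -0.16 and -0.06, so these overlap. Oil organoid libraries are at -0.20, 0.11 and 0.09, and CCl4 organoid library 1 at -0.09. With libraries scaled by size alone the sterol arm median of CCl4 livers against healthy ones is 0.21.

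CCl4 livers were compared with healthy livers to ask how lipid synthesis genes differed in the whole tissue. The control livers are labelled only as healthy. In comparisons with them, an effect of the mineral oil vehicle cannot be told apart from one of CCl4. In the sterol arm 6 of 21 members were lower and 2 higher, and in the fatty acid arm 6 of 18 were higher and 3 lower. Of all 15078 genes tested, 53.9% were called in this comparison, 28.5% higher and 25.4% lower, so the share of members called was not above the background. The median log2 difference was -0.18 in the sterol arm and 0.21 in the fatty acid arm, against 0.00 for all genes.

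The largest decrease among the sterol genes was in Tm7sf2, which encodes a sterol C14 reductase. Its level was 206, 133 and 207 CPM in the healthy livers, 65.8, 63.5 and 59.8 CPM in CCl4 livers and 132, 104 and 120.3 CPM after the extract. The 3 groups did not overlap, and those treated with extract lay between the others. Tm7sf2 (chr19:6062821-6068373, minus strand) fell by 1.50 on the log2 scale (SE 0.16, adjusted p = 1.14e-05) with CCl4 and was 0.91 ± 0.16 (log2, SE) higher with the extract than with CCl4 alone (adjusted p = 0.00235). It was the only sterol arm gene called for the extract in the liver.

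Idi1 encodes the isomerase that supplies the active isoprene unit. It was read at 109, 68.1 and 57.4 CPM in healthy livers, 33.7, 45.8 and 35.8 CPM in CCl4 livers and 42.6, 37.6 and 43.0 CPM after the extract. Every healthy liver lay above every other liver, while the CCl4 livers and those given extract overlapped. Idi1 (chr13:8885501-8892451, plus strand) fell by 0.98 ± 0.20 (log2, SE) with CCl4 (adjusted p = 0.00139) and differed by 0.11 ± 0.20 between the extract and CCl4 alone (adjusted p = 0.764). Of its 50-base sequences, 30.5% also occur in other transcripts, chiefly those of Gm13502.

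Msmo1, a sterol C4 demethylase, had 211, 126 and 167 CPM in healthy livers, 66.4, 101 and 93.7 CPM in CCl4 livers and 99.5, 103 and 83.8 CPM after the extract. Hsd17b7, a keto reductase of the same demethylation, had 83.5, 59.3 and 56.3 CPM, then 34.7, 51.3 and 42.2 CPM, then 34.4, 41.9 and 35.2 CPM. Stard4, a carrier of cholesterol between membranes, had 102, 74.4 and 59.2 CPM, then 38.7, 53.6 and 34.7 CPM, then 47.3, 44.1 and 41.0 CPM. For each of these 3 genes the healthy livers lay above all others and the 2 injured groups overlapped. With CCl4 Msmo1 fell by 0.94 ± 0.19 (log2, SE; adjusted p = 0.00134), Hsd17b7 fell by 0.63 ± 0.17 (adjusted p = 0.00773) and Stard4 fell by 0.88 ± 0.19 (adjusted p = 0.00219).

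Srebf2 itself had 62.1, 55.0 and 72.4 CPM in healthy livers, 52.7, 51.5 and 48.1 CPM in CCl4 livers and 56.3, 61.9 and 61.6 CPM after the extract. The CCl4 livers lay below the others. Its decrease of -0.31 ± 0.11 (log2, SE; adjusted p = 0.0297) was small, and it turned to 0.08 (adjusted p = 0.515) when libraries were scaled by size alone. Without healthy library 1 it was -0.31 with adjusted p = 0.0587, and it was also lost without healthy library 3 or CCl4 library 2 or 3. The 2 called increases were in Sc5d and Dhcr7, enzymes of the last steps to cholesterol. Sc5d had 778, 506 and 534 CPM in healthy livers and 866, 806 and 815 CPM in CCl4 livers, without overlap. Dhcr7 had 179, 84.6 and 113 CPM, then 172, 165 and 186 CPM, and healthy library 1 lay within the CCl4 range.

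Hmgcs1, Sqle and Insig1 gave no call. Hmgcs1 had 449.6, 255 and 237 CPM in healthy livers, 222, 337 and 252 CPM in CCl4 livers and 284, 295 and 287 CPM after the extract. Sqle, the squalene epoxidase, had 171, 81.1 and 111 CPM, then 91.8, 109 and 135 CPM, then 104, 101 and 77.7 CPM. Insig1, which retains SCAP, had 282, 254 and 344 CPM, then 208, 268 and 267 CPM, then 264, 312 and 251 CPM. In these 3 genes the groups overlapped, and for Hmgcs1 and Sqle the highest value was that of healthy library 1.

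In the fatty acid arm, genes at very different levels rose with CCl4. Scd2, a stearoyl-CoA desaturase that the normal adult liver makes little of, had 26.5, 7.81 and 11.1 CPM in healthy livers, 107, 82.0 and 157 CPM in CCl4 livers and 105, 62.3 and 44.3 CPM after the extract. Pnpla3, a lipid droplet lipase and acyltransferase, had 5.28, 1.13 and 2.17 CPM, then 27.5, 25.1 and 72.4 CPM, then 26.7, 18.6 and 15.8 CPM. Both sets of injured livers lay above all healthy ones for both genes. Scd2 shares 2.7% of its 50-base sequences with Scd1, which had 12649.6 to 34943 CPM in the healthy livers. With CCl4, Scd2 (chr19:44293674-44306864, plus strand) rose by 3.07 ± 0.41 (log2, SE; adjusted p = 7.07e-05) and Pnpla3 (chr15:84167837-84187236, plus strand) by 3.95 ± 0.49 (adjusted p = 4.29e-05).

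Srebf1 had 200.4, 187 and 326 CPM in healthy livers, 407, 338 and 329 CPM in CCl4 livers and 410, 323 and 448 CPM after the extract. CCl4 livers lay above healthy ones by a narrow margin, set by healthy library 3. Srebf1 rose by 0.63 ± 0.20 (log2, SE; adjusted p = 0.0174) with CCl4, a call that was lost without healthy library 1 (0.53, adjusted p = 0.0669), healthy library 2 or CCl4 library 1. Gpam, which starts glycerolipid synthesis, had 173, 146 and 105 CPM, then 210.1, 252 and 191 CPM, then 226, 188 and 234 CPM. Its healthy livers lay below the rest, and the CCl4 difference was 0.64 ± 0.17 (adjusted p = 0.0074). Acly and Fads2 were the other called increases.

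Mlxipl and Dgat2 went the other way. Dgat2, which makes triglyceride, had 624, 532 and 665 CPM in healthy livers, 312, 330.3 and 251 CPM in CCl4 livers and 378, 439 and 444 CPM after the extract. Mlxipl had 497, 435 and 414 CPM, then 326, 322 and 179 CPM, then 514, 385 and 538 CPM. For Dgat2 the 3 groups were separate and the extract group was in the middle, while for Mlxipl the extract group overlapped the healthy one. Dgat2 fell by 1.03 ± 0.13 (log2, SE; adjusted p = 4.98e-05) and Mlxipl fell by 0.75 ± 0.21 (adjusted p = 0.0102) with CCl4. Me1 was the third called decrease.

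Scaling moved this comparison. Scaled by library size alone, the median of all genes was 0.38 higher in CCl4 livers and the calls over all genes became 7235 higher and 1389 lower. Among the members the sterol arm then had 5 higher and 4 lower (median 0.21) and the fatty acid arm 9 higher and 1 lower, and the decreases of Hsd17b7 (-0.25, adjusted p = 0.21) and Mlxipl (-0.37, adjusted p = 0.12) were no longer called. Without healthy library 1 the sterol arm had 4 higher and 5 lower, and the fatty acid arm 8 higher and 2 lower. Over all genes 3959 were then higher and 3428 lower.

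The extract was next compared with CCl4 alone in the liver. Besides Tm7sf2, the calls were 3 increases in the fatty acid arm, in Me1, Mlxipl and Dgat2, of 2869 genes called in all (19%; 9.3% higher, 9.72% lower). The fatty acid arm had a median log2 difference of 0.28, and 9 of its 18 members were higher in every extract library than in every CCl4 library, which 20.8% of all genes were. None was lower in that way, as 21.4% of all genes were. The sterol arm had a median of -0.04, with 4 of 21 members at an unadjusted p under 0.05, as were 32.3% of all genes.

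Me1, the malic enzyme that supplies NADPH for lipid synthesis, had 431, 184 and 239.8 CPM in healthy livers, 166, 194 and 139 CPM in CCl4 livers and 337, 269 and 355 CPM after the extract. The extract libraries lay above the CCl4 libraries, and the healthy ones spread over both. Me1 was 0.95 ± 0.25 (log2, SE; adjusted p = 0.0216) higher with the extract, Mlxipl 0.83 ± 0.21 (adjusted p = 0.0177) and Dgat2 0.50 ± 0.13 (adjusted p = 0.0207). All 3 calls were lost without extract library 3, and 1 was left without extract library 1 or CCl4 library 3. Me1 also lost its call without CCl4 library 1, and Dgat2 without extract library 2 or with library size alone (adjusted p = 0.0809).

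Fasn and Scd1, which encode the synthase and the main liver desaturase of this arm, were higher with the extract in every library but did not pass the test. Fasn had 757, 296 and 467 CPM in healthy livers, 726, 699 and 628 CPM in CCl4 livers and 1042, 941 and 1123 CPM after the extract. The extract group lay above all 6 other livers. Its difference from CCl4 was 0.60 ± 0.25 (log2, SE; adjusted p = 0.125) and from healthy liver 1.13 ± 0.25 (adjusted p = 0.00499). Scd1 had 34943, 12649.6 and 17068 CPM, then 14277, 14976 and 12561 CPM, then 30188, 21192 and 25324 CPM. Healthy library 1 held the highest Scd1 value and the healthy group overlapped both others. The difference between extract and CCl4 was 0.86 ± 0.37 (adjusted p = 0.133).

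Fitted on these 2 groups alone, 4 sterol arm members (1 higher, 3 lower) and 7 fatty acid arm members (all higher) were called. Over all genes this fit called 1624 higher and 1791 lower. Scaled by library size alone, the median of all genes was -0.23, all calls became 641 higher and 3586 lower, and the members called were 1 higher and 3 lower in the sterol arm and 2 higher and 1 lower in the fatty acid arm.

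Livers given CCl4 and the extract were also compared with healthy livers, which the first comparison shares. Of all genes 34.6% were called (21% higher, 13.6% lower). In the sterol arm 5 of 21 members were lower and none higher, namely Idi1 (-0.88 ± 0.20, log2, SE), Tm7sf2 (-0.59 ± 0.16), Msmo1, Hsd17b7 and Stard4, all of which were also lower with CCl4 alone. In the fatty acid arm 7 members were higher, among them Srebf1 (0.76 ± 0.20, adjusted p = 0.0112), Fasn, Scd2 (2.32, adjusted p = 0.00114) and Pnpla3 (3.06, adjusted p = 6.18e-04). Dgat2 was the 1 lower member (-0.53, adjusted p = 0.00909). The median of the fatty acid arm was 0.39, and 17 of 18 members were above 0. Scaled by library size alone, the median gene was 0.13 higher and all calls became 3810 higher and 839 lower. Without healthy library 1 the sterol arm had 2 higher and 4 lower (Tm7sf2 was not called, adjusted p = 0.0522) and the fatty acid arm 11 higher and 1 lower. Over all genes 2890 were higher and 1639 lower in that fit. The Tm7sf2 call was also lost without extract library 2 (adjusted p = 0.0604).

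**Figure D2:**
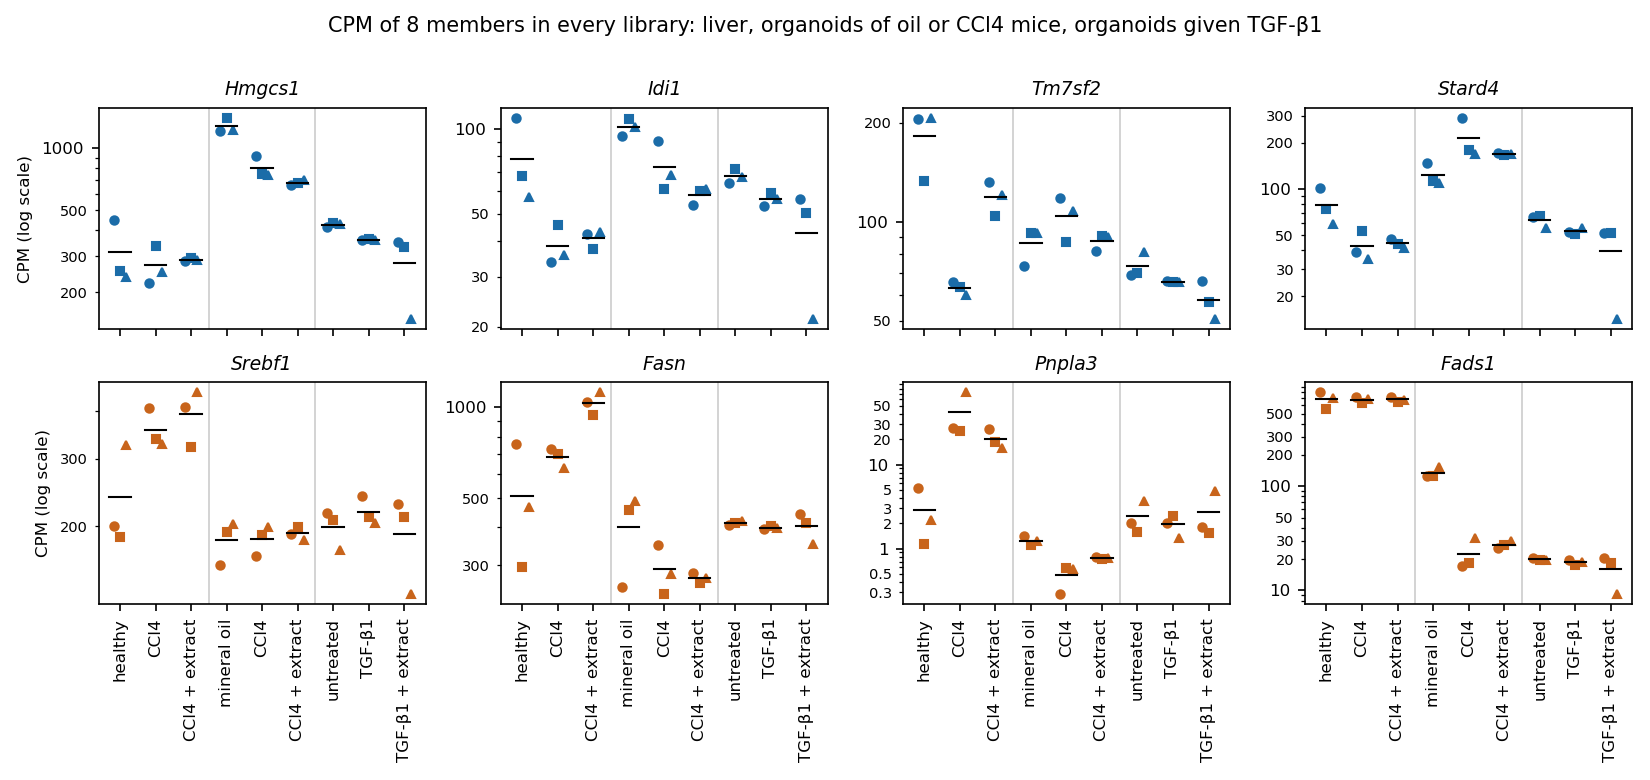
CPM on a log axis of 8 members (Hmgcs1, Idi1, Tm7sf2, Stard4, Srebf1, Fasn, Pnpla3 and Fads1) in each library of the 9 groups, with a bar at the group mean; circles, squares and triangles are libraries 1, 2 and 3, blue the sterol arm and orange the fatty acid arm, and the 3 tables were normalized apart. Tm7sf2 is lower in all CCl4 livers (59.8 to 65.8 CPM) than in healthy ones (133 to 207 CPM), and Fads1 is lower in all organoids of CCl4 mice (17.1 to 31.9 CPM) than in oil organoids (125 to 152 CPM).

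The oil and CCl4 organoids were compared to see what remained different in epithelium grown outside the animal. In the sterol arm 7 of 21 members were lower and 1 higher, with a median log2 difference of -0.20. In the fatty acid arm 9 of the 17 members tested were lower and 2 higher, with a median of -0.79. Of all 14818 genes tested 40.3% were called, 20.4% higher and 19.9% lower. Thrsp, a nuclear protein that promotes lipogenesis in liver, was too low to test in any organoid table, at most 0.499 CPM.

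Hmgcs1 had 1219, 1405 and 1231 CPM in oil organoids, 920.4, 754 and 747 CPM in organoids of CCl4 mice and 661, 682 and 700.5 CPM after the extract. The 3 groups did not overlap and followed that order. Hmgcs1 (chr13:119690379-119708260, plus strand) fell by 0.67 ± 0.11 (log2, SE; adjusted p = 0.00264) in organoids of CCl4 mice. Of its 50-base sequences, 13.6% occur in the opposite-strand gene Gm48342, and no source used here says whether reads were counted by strand.

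Sqle had 423, 589 and 587 CPM in oil organoids, 394, 371 and 384 CPM in CCl4 organoids and 319, 353 and 363 CPM after the extract, again without overlap. Fdft1, which joins farnesyl units into squalene, had 354, 442 and 433 CPM, then 325, 281 and 301 CPM, then 245, 267 and 265 CPM. Idi1 had 94.0, 108 and 101 CPM, then 90.2, 61.1 and 68.4 CPM, then 53.9, 60.4 and 61.2 CPM. Fdft1 was ordered like Sqle, while for Idi1 the 2 groups from CCl4 mice overlapped. Fdft1 fell by 0.43 (log2; adjusted p = 0.0125), Sqle fell by 0.46 (adjusted p = 0.0259) and Idi1 fell by 0.48 ± 0.14 (SE, adjusted p = 0.0258). The Idi1 call was lost with the replicate number as a block (adjusted p = 0.0531), and those of Idi1 and Sqle without oil library 2 or 3 or CCl4 library 2 or 3, and for Sqle also without CCl4 library 1.

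Srebf2 had 554, 677 and 690.3 CPM in oil organoids, 431, 502 and 477 CPM in CCl4 organoids and 452, 464 and 478 CPM after the extract. All 6 libraries of CCl4 mice lay below the oil libraries, and the 2 groups from CCl4 mice overlapped. Srebf2 fell by 0.44 ± 0.11 (log2, SE; adjusted p = 0.0129). Insig1 had 417, 435 and 416 CPM, then 334, 413 and 377 CPM, then 306, 349 and 346 CPM. Its oil libraries were the highest, but the difference of -0.18 was not called (adjusted p = 0.174). Fdps (-0.47, adjusted p = 0.0123) and Msmo1 (-0.35, adjusted p = 0.0134) completed the sterol genes lower in CCl4 organoids. Fdps shares 86.4% of its 50-base sequences with other transcripts, so its counts are uncertain.

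Stard4 was the 1 sterol arm gene that was higher in organoids of CCl4 mice. It had 147, 113 and 110.2 CPM in oil organoids, 291, 181 and 169.8 CPM in CCl4 organoids and 171, 167 and 169.7 CPM after the extract. Both groups of CCl4 mice lay above the oil group. The difference was 0.76 ± 0.20 (log2, SE; adjusted p = 0.0182), opposite in sign to that in the liver. The call was lost when oil and CCl4 organoids were fitted alone. It was also lost without either of the oil libraries other than library 1. The highest value was that of CCl4 library 1.

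Fads1, the desaturase that makes arachidonic and eicosapentaenoic acid, had the lowest adjusted p of the members in this comparison. It had 125, 126 and 152 CPM in oil organoids, 17.1, 18.3 and 31.9 CPM in CCl4 organoids and 25.7, 27.1 and 29.7 CPM after the extract. Every library of CCl4 mice was far below every oil library. Fads1 (chr19:10182888-10196877, plus strand) fell by 2.63 ± 0.22 (log2, SE; adjusted p = 1.18e-04). Its neighbour Fads2, the desaturase of the step before, had 90.7, 173 and 193 CPM, then 48.3, 44.2 and 71.0 CPM, then 60.6, 60.5 and 61.6 CPM. Fads2 fell by 1.44 ± 0.28 (adjusted p = 0.00527), also without overlap.

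Acly, Me1, Scd1 and Gpam also had small p-values. Acly, which cuts citrate to acetyl-CoA, had 326, 389 and 443 CPM in oil organoids, 225, 226 and 257 CPM in CCl4 organoids and 248, 245 and 254 CPM after the extract. Me1 had 578, 881 and 963 CPM, then 371, 373 and 399.7 CPM, then 356, 387 and 381 CPM. Scd1 had 376, 447 and 567 CPM, then 270.5, 206 and 279 CPM, then 209, 209 and 229 CPM. In all 3 genes the oil organoids lay above the rest and the 2 groups from CCl4 mice overlapped. Acly fell by 0.70 ± 0.11 (log2, SE; adjusted p = 0.00224), Me1 fell by 1.05 ± 0.17 (adjusted p = 0.00246) and Scd1 fell by 0.87 ± 0.17 (adjusted p = 0.00463). Gpam fell by 0.90 ± 0.16 (adjusted p = 0.00348), from 34.8, 48.9 and 53.5 CPM to 21.6, 26.7 and 24.0 CPM. Me1 shares 32.8% of its 50-base sequences with other transcripts.

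Srebf1, the transcription factor of the arm, gave no call. It had 158, 193 and 202 CPM in oil organoids, 167, 190 and 199 CPM in CCl4 organoids and 191, 199 and 184 CPM after the extract. The groups overlapped throughout, with a CCl4 difference of 0.01 ± 0.11 (log2, SE; adjusted p = 0.945). Fasn had 253, 458 and 489 CPM, then 350.4, 241 and 281 CPM, then 283, 261 and 272 CPM, with the lowest oil value in oil library 1. Its difference was -0.42 ± 0.25 (adjusted p = 0.21). Oil library 1 also set apart Elovl6, an elongase, at 220.5 CPM against 55.7 and 60.5 CPM, and Acacb, the mitochondrial acetyl-CoA carboxylase, at 1.16 CPM against 15.2 and 17.8 CPM. Elovl6 and Dgat2 were the called increases, and Acacb, Elovl5 and Pnpla3 the remaining decreases. Acacb had a mean of only 0.0561 CPM per kilobase of exon in CCl4 organoids.

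Without oil library 1, 11 sterol arm members were lower and 1 higher, and 11 fatty acid arm members were lower and 2 higher. Calls over all 14818 genes then rose as well, to 4694 higher and 4309 lower. Without oil library 2 the sterol arm had 3 calls, with Msmo1, Srebf2 and Stard4 also lost. Without oil library 3 it had 5, all lower. Fitted on the 2 groups alone it had 2, all lower, so Stard4 was called in neither. In the same order, calls over all genes were 2024, 2182 and 1731 higher and 2255, 2332 and 2093 lower. Summed macrophage markers were 28.0 to 116 CPM in oil organoids and 6.69 to 16.7 CPM in CCl4 organoids, with Adgre1 and C1qa at 0 in all of them. Summed cholangiocyte markers were 7819.6 to 8937 and 6009.8 to 6659 CPM, and 4 of these 7 markers were lower in CCl4 organoids. Summed hepatocyte markers were 104 to 464 CPM in oil organoids and 518 to 1254 CPM in CCl4 organoids, with 3 of the 5 tested markers higher, none lower and Asgr1 at 0. Summed proliferation markers were 45.2 to 98.8 and 91.2 to 113 CPM.

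Exposing organoids of CCl4 mice to the extract for 24 h gave no call in limma, for the members or for any of 14818 genes (0%), and none with voom weights. At an unadjusted p under 0.05 there were 269 genes (1.82%), 3 of them in the sterol arm and 1 in the fatty acid arm. All 21 sterol arm members had a fitted difference below 0, from -0.50 to -0.01 with a median of -0.24. In 9 of them every extract library lay below every CCl4 library, which was so for 7.58% of all genes. Hmgcs1 was 0.24 ± 0.11 (log2, SE) lower. The fatty acid arm had a median of 0.02. Without CCl4 organoid library 1 the sterol arm median was -0.15.

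Compared with oil organoids, which the first organoid comparison shares, the organoids given extract had 12 sterol arm members lower and none higher, with a median of -0.46. Of all genes 34.5% were called (17.2% higher, 17.3% lower). Hmgcs1 fell by 0.91 ± 0.11 (log2, SE; adjusted p = 7.56e-04), Fdft1 fell by 0.66 (adjusted p = 0.00244) and Msmo1 fell by 0.58 (adjusted p = 0.00176). Idi1 fell by 0.79 (adjusted p = 0.00389) and Insig1 fell by 0.34 (adjusted p = 0.0266). The other members called lower were Pmvk, Mvd, Fdps, Sqle, Cyp51, Nsdhl and Srebf2. In the fatty acid arm 9 members were lower and 1, Dgat2, higher, with a median of -0.65. Fads1 fell by 2.28 (adjusted p = 2.31e-04) and Scd1 fell by 1.08 (adjusted p = 0.00206). Scaled by library size alone, the median gene was 0.12 higher, all calls became 3358 higher and 2128 lower, and the sterol arm had 8 lower and 1 higher. Without oil library 1 it had 15 lower and 1 higher, and over all genes 4406 were higher and 3931 lower. The calls of Srebf2 and Insig1 were lost with library size alone and without extract library 1 or oil library 2, and that of Insig1 also without extract library 2 or 3 or oil library 3.

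**Figure D3:**
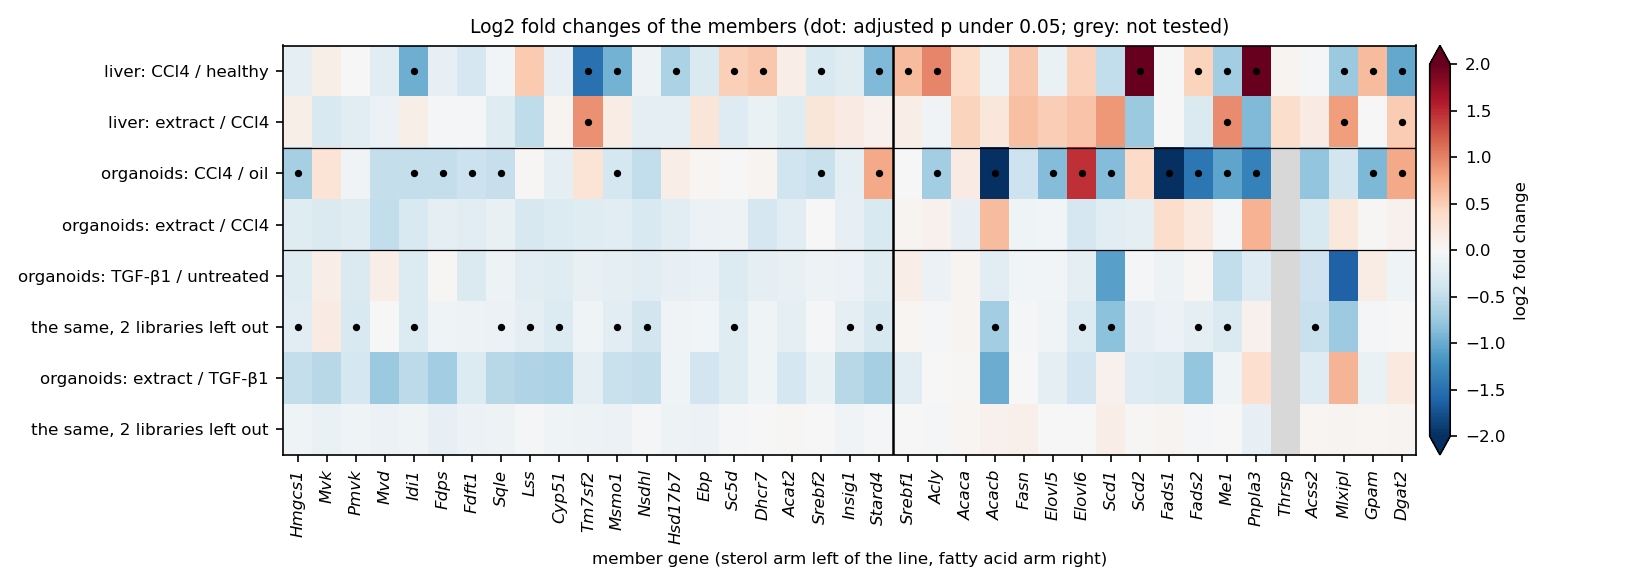
Log2 differences of the 39 members in 8 comparisons, one comparison per line, with the sterol arm left and the fatty acid arm right of the vertical line; colour runs from -2 to 2 and larger values take the end colours, a dot marks an adjusted p under 0.05 and grey marks a member not tested. Scd2 (3.07) and Pnpla3 (3.95) are the strongest increases in CCl4 against healthy liver, and Fads1 (-2.63) and Acacb (-3.89) the strongest decreases in CCl4 against oil organoids. Acacb was low, with means of 1.18 CPM per kilobase of exon in oil and 0.0561 in CCl4 organoids, and its oil libraries differed widely.

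In organoids of healthy mice, no member was called for TGF-β1 when all libraries were used. Over all 14116 genes limma called 3 (0.0213%), voom weights gave 1, and 1745 had an unadjusted p under 0.05 (12.4%), among them none of the sterol arm and 2 of the fatty acid arm. The sterol arm had a median of -0.18, and 18 of 21 members were below 0. In 12 of them every TGF-β1 library lay below every untreated one, which was so for 13.3% of all genes. With untreated library 3 and TGF-β1 plus extract library 3 left out, 3309 genes were called (23.4%; 11.5% higher, 11.9% lower). The members called were then 11 in the sterol arm and 6 in the fatty acid arm, all lower, with medians of -0.19 and -0.11.

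Hmgcs1 had 415, 434 and 428 CPM in untreated organoids, 359, 362 and 361 CPM with TGF-β1 and 349.6, 332 and 148 CPM with TGF-β1 and then the extract. Cyp51, the lanosterol demethylase, had 329, 337 and 313 CPM, then 269.8, 283 and 270.1 CPM, then 264, 255 and 83.1 CPM. For both genes all untreated libraries lay above all treated ones, and the third library given extract was the lowest by a wide margin. With the 2 libraries left out Hmgcs1 fell by 0.23 ± 0.04 (log2, SE; adjusted p = 0.00181) and Cyp51 fell by 0.28 (adjusted p = 5.10e-04) with TGF-β1. With all libraries the Hmgcs1 difference was -0.24 ± 0.29 (adjusted p = 0.769).

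Nsdhl, a sterol dehydrogenase, had 127, 121 and 91.3 CPM in untreated organoids, 96.7, 95.8 and 98.3 CPM with TGF-β1 and 98.0, 91.1 and 38.1 CPM after the extract. Here untreated library 3 was as low as the TGF-β1 libraries. With both libraries left out Nsdhl fell by 0.36 ± 0.05 (log2, SE; adjusted p = 1.77e-04). Idi1 had 64.1, 72.1 and 67.4 CPM, then 53.3, 59.3 and 56.6 CPM, then 56.6, 50.2 and 21.2 CPM. Sqle had 299, 305 and 289.9 CPM, then 274, 281 and 276 CPM, then 253, 263 and 100.4 CPM. Insig1 had 174, 163 and 139 CPM, then 149, 147 and 145 CPM, then 145, 135 and 50.1 CPM. In Idi1 and Sqle the untreated organoids were the highest, and in Insig1 untreated library 3 fell below the TGF-β1 libraries. With the 2 libraries left out the differences were -0.27 for Idi1 (adjusted p = 0.013), -0.12 for Sqle (adjusted p = 0.0452) and -0.20 for Insig1 (adjusted p = 0.00858).

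Neither SREBP gene was called. Srebf2 had 356, 345 and 416 CPM in untreated organoids, 351, 337 and 348 CPM with TGF-β1 and 344, 349 and 259 CPM after the extract. Srebf1 had 216, 208 and 173 CPM, then 239.6, 211 and 204 CPM, then 228, 211 and 133 CPM. Fasn had 407, 413 and 419.8 CPM, then 396, 404 and 399 CPM, then 443, 415 and 352 CPM. Srebf2 and Srebf1 overlapped across the 3 groups, and the Fasn values with TGF-β1 lay just below the untreated ones. Among the fatty acid genes Scd1 had 23.5, 19.5 and 38.1 CPM in untreated organoids, 11.3, 11.1 and 14.3 CPM with TGF-β1 and 13.6, 13.2 and 11.7 CPM after the extract. All untreated libraries were above all treated ones. The Scd1 difference with TGF-β1 was -1.09 ± 0.23 (log2, SE; adjusted p = 0.162) with all libraries and -0.82 ± 0.11 (adjusted p = 2.81e-04) with the 2 left out. Acacb had 27.1, 27.9 and 9.97 CPM, then 15.6, 16.4 and 18.8 CPM, and fell by 0.70 ± 0.09 (adjusted p = 1.13e-04) with both libraries left out.

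**Figure D4:**
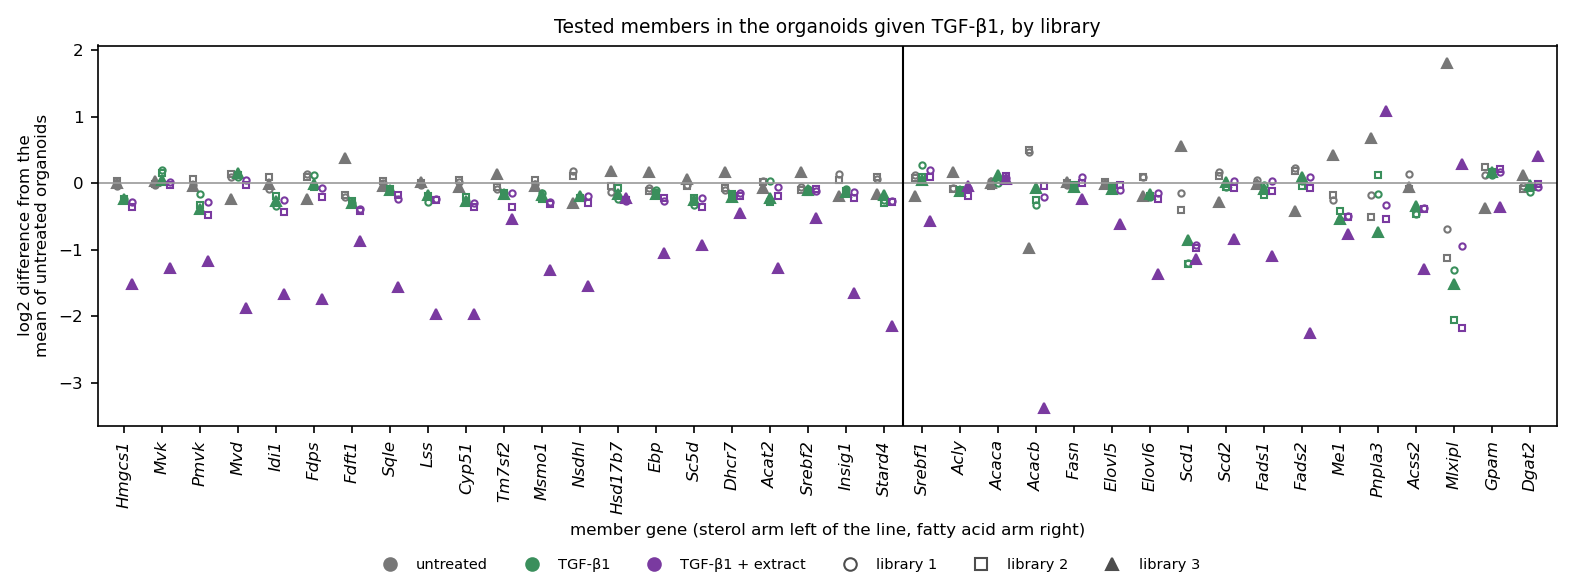
Log2 difference from the mean of the untreated group for each tested member in each library of the TGF-β1 table; the third library of a group is filled. TGF-β1 libraries have sterol arm medians of -0.19 to -0.16, and the third library given TGF-β1 and extract has -1.30.

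Following TGF-β1 with the extract called no gene in limma against TGF-β1 alone (0% of 14116), none with voom weights, and 271 at an unadjusted p under 0.05 (1.92%). All 21 sterol arm members were below 0, with a median of -0.47. That median was -0.08 with the 2 libraries left out, when again no gene was called and 917 (6.5%) had an unadjusted p under 0.05, 7 of them in the sterol arm. The third library given extract was the lowest. Against the other libraries of its group 20 of its 21 sterol arm members were lower, 13 of them by more than 1 log2 unit, against 8.01% of all genes. Its summed proliferation markers were 95.7 CPM, against 279 and 218 CPM in its own group and 212 to 265 CPM with TGF-β1. Untreated library 3, which also stood apart, had 443 CPM, against 271 and 322 CPM in its group. A link of these markers to the sterol arm was not tested.

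Against untreated organoids, which the TGF-β1 comparison shares, TGF-β1 and the extract together called 2 genes of 14116 (0.0142%), none of them a member. With voom weights 1 gene was called, and 1302 genes had an unadjusted p under 0.05 (9.22%), 10 of them in the sterol arm. With the 2 libraries left out 1941 genes were called (13.8%; 5.85% higher, 7.9% lower). The members called were then 14 of the sterol arm and 6 of the fatty acid arm, all lower, among them Hmgcs1 (-0.32, adjusted p = 7.33e-04), Cyp51 (-0.36, adjusted p = 3.06e-04) and Nsdhl (-0.39, adjusted p = 3.02e-04). Leaving out any 1 library of this table gave no call among the members in any of its 3 comparisons.

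Levels per kilobase of exon were ranked within groups. In healthy liver Scd1 was the highest member at 4406 CPM per kb, followed by Elovl5 at 261 and Dgat2 at 197, and Pnpla3 (1.85) and Scd2 (2.77) were the lowest. In oil organoids Scd2 was the highest at 723 CPM per kb, followed by Hmgcs1 at 279.7 and Me1 at 209.7. In untreated organoids Scd2 was again the highest at 449 and Hmgcs1 had 92.6. Scd1 and Scd2 are neighbouring genes for enzymes of the same reaction. The share of Scd2 in their sum per kb was 0.0678%, 0.0553% and 0.0583% in the healthy livers. It was 0.667%, 0.488% and 1.11% in the CCl4 livers and 0.311%, 0.263% and 0.156% after the extract. These 3 liver groups did not overlap. Since 2.7% of the 50-base sequences of Scd2 also occur in Scd1, some Scd2 counts in liver may come from Scd1, which was not tested. In organoids the share was 83.9% to 90.3% in the oil group, 93.6% to 95.2% in CCl4 organoids and 97.9% to 99.5% in the TGF-β1 table. The tables were normalized apart, but a share within a library does not depend on that.

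**Figure D5:**
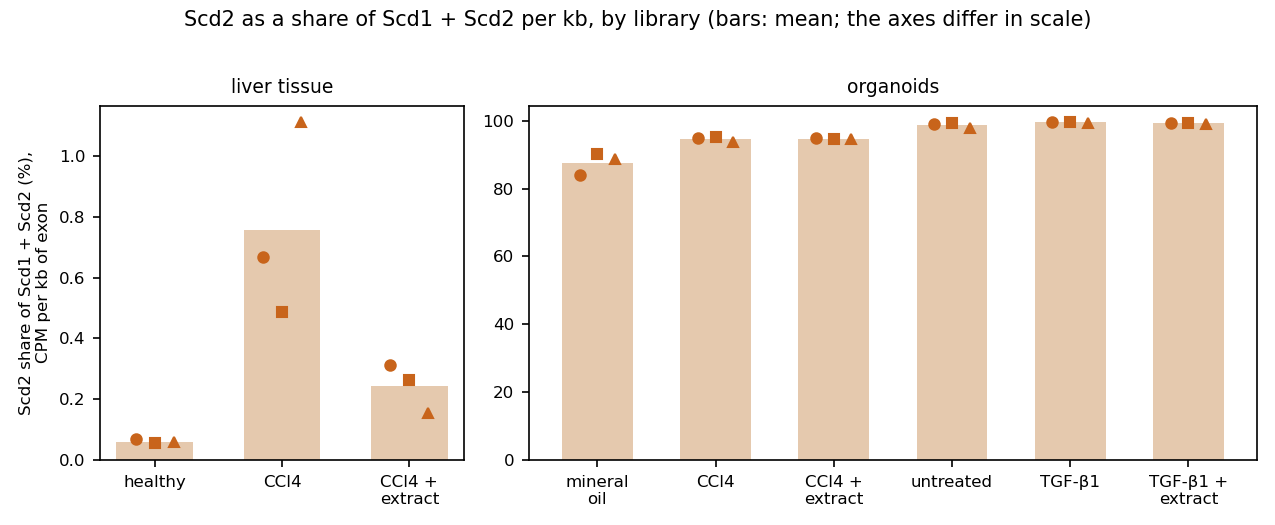
Scd2 as a percentage of the sum of Scd1 and Scd2 in CPM per kb, for each library of the 9 groups, with bars at the group means and separate linear axes from 0 for livers and organoids. The livers sit between 0.0553% and 1.11%, and the organoids between 83.9% and 99.5%.

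Whether the CCl4 contrast of the members differed between liver and organoids was tested as the difference between the 2 within-table contrasts, over 13142 genes. The controls were unlike. Organoid controls came from mice given the mineral oil vehicle, while the control livers are labelled only as healthy. An effect of the vehicle therefore cannot be told apart from one of CCl4 in this difference. Of these, 54.1% were called (26.8% higher in the liver contrast, 27.2% lower). In the fatty acid arm 8 of 17 members were higher and 1 lower in liver relative to organoids, and in the sterol arm 1 was higher and 4 lower. Called or not, 14 fatty acid arm members were above 0 and 3 below, with a median of 0.77. In the sterol arm 13 were above 0 and 8 below, with a median of 0.10, against -0.04 for all genes. Pnpla3 differed by 5.30 ± 0.67 (log2, SE; adjusted p = 1.14e-05), Fads1 by 2.63 ± 0.26 (adjusted p = 1.44e-06) and Gpam by 1.55 ± 0.26 (adjusted p = 1.36e-04). Dgat2 differed by -1.79 ± 0.26 (adjusted p = 4.62e-05), lower in CCl4 livers and higher in CCl4 organoids. Tm7sf2 (-1.78 ± 0.23, adjusted p = 1.32e-05) and Stard4 (-1.64 ± 0.31, adjusted p = 3.81e-04) were the sterol arm genes with the largest differences. Hmgcs1 and Sqle were not called. With library size alone the median gene was 0.31 higher in the liver contrast, all calls became 4853 higher and 1930 lower, and the sterol arm had 4 higher and 2 lower. The effect of the extract differed between liver and organoids for 7.02% of genes (2.4% higher in the liver contrast, 4.63% lower), and among the members for Tm7sf2 alone (1.16 ± 0.23, adjusted p = 0.00786).

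Other genes of the pathway, 56 in 7 lists of SREBP processing, sterol uptake, LXR targets, sterol storage, fatty acid activation, triglyceride storage and ChREBP targets, were counted in the same fits. With CCl4 in liver 10 of the 54 tested were higher and 20 lower, against 28.5% and 25.4% of all genes. The smallest p-values were those of Abcg1, a sterol exporter (1.52, log2, adjusted p = 1.08e-06), Lpin1, a phosphatidate phosphatase (-2.65, adjusted p = 1.68e-06), and Elovl7, an elongase (4.28, adjusted p = 1.89e-06). With the extract in CCl4 liver 9 of 54 were higher and 5 lower, against 9.3% and 9.72% of all genes. Lpin1 was 1.53 higher (adjusted p = 6.79e-04) and Soat2, which esterifies cholesterol, 0.64 higher (adjusted p = 0.00304). In organoids of CCl4 mice 12 of 52 were higher and 7 lower than in oil organoids, against 20.4% and 19.9% of all genes. Soat1, the other cholesterol esterifying enzyme, was 3.13 higher (adjusted p = 8.03e-05) and Nr1h3, which encodes LXRα, 2.36 higher (adjusted p = 2.91e-04). No gene of these lists was called for the extract in organoids of CCl4 mice. With TGF-β1, 5 of 45 were higher and 11 lower once the 2 libraries were left out, against 11.5% and 11.9% of all genes. None of the 45 was called with all libraries.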

How the data were processed

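RNA-seq was measured in 27 libraries, 3 for each of 9 groups, from TruSeq stranded mRNA kits per the labels' protocols; build mm10 per the submitters' processing notes, with no aligner or counter named in the sources used here. The tables hold log2 values that the authors deposited, log2 CPM on scaled library sizes with a prior count of 2; whole reads were recovered from them for 100% of values (within 0.05 of a whole read). CPM printed here are those reads over the authors' scaled size, without a prior. Since the values were log2 and not counts, limma 3.58.1 (R 4.3.3) was used: lmFit on the 9 libraries of a table with 3 group means, eBayes with trend, two-sided, Benjamini-Hochberg over all tested genes, adjusted p under 0.05. Genes entered with at least 3 libraries above the CPM of 10 reads in the median library and 15 reads in all. Differences between tables came from 1 fit over both, on tables normalized apart. Scripts were tested on simulated data.

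The members and lists were chosen with earlier results of these data known. Named are 8 anchors (Srebf2, Insig1, Hmgcs1, Idi1, Sqle, Srebf1, Fasn, Scd1), in each comparison the 5 members of an arm with the smallest p among those called, members not called or too low, and up to 3 other pathway genes with the smallest p (1 such result is not reported here); any other gene, and those named with the 2 libraries left out, was chosen after its values were seen. Replicate numbers did not pair the samples by correlation of their deviations in the liver (-0.145 to 0.137) or CCl4 organoids (-0.148 to 0.366). In the TGF-β1 table untreated and extract libraries of the same number gave 0.531 to 0.717, and other pairs -0.039 to 0.108. Both libraries numbered 3 stood apart in these 2 groups. Deviations from a mean of 3 carry that into libraries 1 and 2, so these values cannot show pairing. Gene positions and exon lengths are from GENCODE M21, and shared 50-base sequences from its transcripts. Alternatives were no filter, library size alone, median-of-ratios size factors, a prior of 0.5, voom weights, the replicate block, the 2 groups alone, and each library left out.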

Additional observations from a re-analysis of the deposited data

Results flagged for a closer look

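The CCl4 contrast differed between liver and organoids, by a test of the difference itself, for 1 sterol arm member in the higher and 4 in the lower direction and for 8 and 1 fatty acid arm members. The arm medians were 0.10 (sterol) and 0.77 (fatty acid), against -0.04 for all genes. The controls were unlike, healthy livers in one contrast and organoids of mineral oil mice in the other, so the vehicle cannot be told apart from CCl4. In the sterol arm Tm7sf2 differed by -1.78, Stard4 by -1.64, Hsd17b7 by -0.76 (adjusted p = 0.00979), Msmo1 by -0.59 (adjusted p = 0.0471) and Sc5d by 0.49 (adjusted p = 0.0474), all log2, liver minus organoids. In the fatty acid arm Pnpla3 differed by 5.30, Fads1 by 2.63, Fads2 by 1.89 (adjusted p = 3.99e-04), Gpam by 1.55 and Dgat2 by -1.79. The Msmo1 and Sc5d calls were lost in most of the alternatives that left out 1 library, with adjusted p up to 0.133 for Msmo1 and 0.124 for Sc5d. The effect of the extract differed between liver and organoids for 1 sterol arm member, Tm7sf2, by 1.16.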

How the results depend on the processing

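Counts of members called are given as sterol arm, then fatty acid arm. Leaving out 1 library at a time gave 5 to 9 and 6 to 10 for CCl4 against healthy liver, 1 and 0 to 3 for extract against CCl4 liver, 4 to 8 and 5 to 12 for extract against healthy liver, 3 to 12 and 8 to 13 for CCl4 against oil organoids, 8 to 16 and 7 to 13 for extract against oil organoids, 3 to 8 and 8 to 14 for the CCl4 difference between liver and organoids, 1 and 0 for that of the extract, and 0 in every other comparison. Library size alone gave 4 sterol arm calls for extract against CCl4 liver and turned Srebf2 in CCl4 liver to 0.08. The 2 groups alone gave 4 and 7 for extract against CCl4 liver and 2 sterol arm calls for CCl4 against oil organoids. No filter gave 3 sterol arm calls for the CCl4 difference. Leaving out both libraries that stand apart gave 11 and 6 for TGF-β1 and 14 and 6 for TGF-β1 and extract, against untreated organoids. Calls over all genes moved too. For CCl4 against oil organoids they were 2024 higher and 2255 lower without oil library 2, and 4694 and 4309 without oil library 1. The cause of these shifts was not tested. With the replicate block the counts were 10 and 9, 1 and 3, and 5 and 9 in the 3 liver comparisons, 7 and 11, 0 and 0, and 11 and 10 in those of CCl4 organoids, and 0 in the TGF-β1 table; the block ended only the call of Idi1 among named members. Of 438 leave-one-out values of named members 54 lost their call and none turned, and of 390 others 17 lost it and 1 turned. Depth was 44.5 M reads or more, so counting error limits only the lowest members. Examples are Thrsp and Pnpla3 in organoids, Mlxipl in the TGF-β1 table and Acacb in organoids of CCl4 mice.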
